A study of Mus musculus with 5 samples.

Results

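The proteasome genes of the whole mouse embryo were compared between 3 Folr1+/+ and 2 Folr1-/- arrays. Members were the genes with a Psma, Psmb, Psmc, Psmd, Psme, Psmf or Psmg symbol followed by a number, taken from probe sets that carry a single symbol. The rule took 48 of the 12393 genes on the array, through 85 probe sets, and each gene was read from the brightest of its probe sets, by mean log2 signal. For 2 of the 48, Psmc3ip and Psme3ip1, only the name resembles a subunit. Psmc3ip acts in meiotic recombination, and both were set apart, which left 46 proteasome genes. Of these 43 were bright enough to test among 7436 genes, and Psma8, Psmb8 and Psmb9 were not.

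The arrays were Affymetrix Mouse Genome 430A arrays of RNA from C57BL6J embryos at gestation day 9.5. Folr1 encodes a folate receptor, and the study asks which genes differ between wild-type embryos and embryos without it. The Folr1-/- embryos came from Folr1+/- dams and sires, the dams being fed extra folate before mating and through pregnancy. How the mothers of Folr1+/+ embryos were fed is not stated, so a difference in diet cannot be told apart from one in genotype. The arrays are labelled as biological replicates, with no word on whether each holds 1 embryo or several, so the p-values measure the spread between these arrays. Decidua, chorion and amnion were dissected away, the yolk sac not being named, and the embryos' RNA was amplified in 2 rounds. The ratio of 3' to 5' Actb probe sets, a sign of RNA quality, was 21.1 to 39.5 in Folr1+/+ embryos and 22.8 to 30.5 in Folr1-/- embryos.

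The 26S proteasome degrades proteins that carry ubiquitin chains. Its 20S core is a barrel of alpha and beta rings, in which Psmb5, Psmb6 and Psmb7 encode the catalytic beta subunits. The 19S cap binds ubiquitinated proteins, removes the ubiquitin and unfolds the substrate with its ring of ATPases, while other activators open the core without ubiquitin. Cells that make too little proteasome raise subunit genes together through the transcription factor Nfe2l1, and the related factor Nfe2l2 raises many of them under oxidative stress.

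The groups differed in tissue markers far more than in any proteasome gene. All 16 tested markers of visceral endoderm and yolk sac were higher in the Folr1-/- arrays, with a median log2 fold change of 2.47, and their summed signal was 19310 and 19700 there against 3190 to 4249 in the Folr1+/+ arrays. None of these markers was at 0. Of the 8 tested primitive erythroid markers 6 fell and 0 rose. The summed signal of the 9 on the array, which include 1 too dim to test, was 265 and 746 against 5464 to 6380. Of the 8 tested neural progenitor markers 7 fell and 0 rose. Of the 5 tested somite markers 4 fell and 0 rose, and 2 of 3 tested trophoblast and decidua markers rose. The female-specific Xist gave signals of 29.4, 35.7 and 25.0 in Folr1+/+ embryos against 419 and 770 in Folr1-/- embryos. The Y-linked Eif2s3y gave 300, 345 and 372 against 104 and 3.13, so that Folr1-/- replicate 1 carried signal of both. Sex-linked signal thus differed along with genotype, and its part in the values below was not tested. In whole embryos, fewer cells of a type and less RNA per cell cannot be told apart. The part of these tissue differences in the values below was not tested.

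Of the 43 tested proteasome genes, 0 rose, 1 fell (Psmd2) and 42 did not pass limma's adjusted p threshold of 0.05. Over all tested genes 8.19% rose and 6.79% fell, 15.0% together. In 16 other settings of the analysis 0 to 3 proteasome genes rose and 0 to 2 fell. At an unadjusted p under 0.05, 5 proteasome genes were higher and 2 were lower, 16.3% of the 43, against 30.0% of all tested genes. The 95% interval of the fold change lay wholly within a log2 change of 1 in either direction in 42 of the 43, or 97.7%, against 82.5% of all tested genes. The exception was Psmb10, whose interval reached 1.10. The fit lets the spread vary with intensity, and the SE was 0.26 for the dim Psmb10 and 0.13 for the bright Psma3. These shares were not matched for signal. Fold changes ranged from -0.43 for Psmd2 to 0.54 for Psmb10, on the log2(signal + 16) scale that is used for every fold change here.

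**Figure D1:**
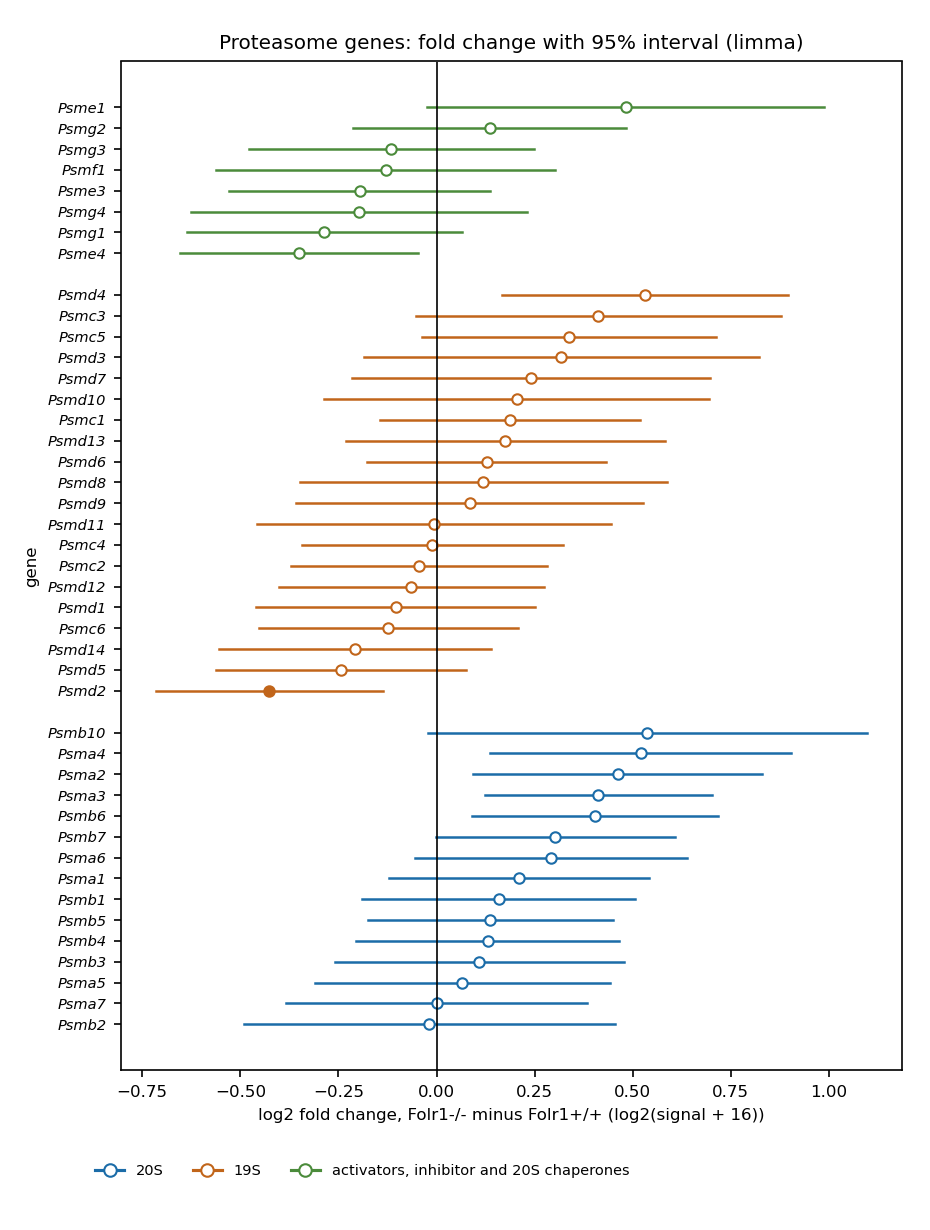
Log2 fold change (x axis, Folr1-/- minus Folr1+/+, on log2(signal + 16)) of the 43 tested proteasome genes (y axis), with 95% intervals from limma as lines, coloured by part of the complex. The filled point is Psmd2, the gene that passed the threshold, and 14 of the 15 blue 20S points lie to the right of 0.

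The parts of the complex lay in different places. The median log2 fold change was 0.21 for 15 genes of the 20S core, 0.10 for 20 genes of the 19S cap and -0.16 for 8 activator, inhibitor and 20S chaperone genes, against -0.02 over all tested genes. A positive fold change was seen in 14 of 15 core genes (93.3%), 11 of 20 cap genes (55.0%) and 2 of 8 of the others (25.0%), against 47.9% of all tested genes. These values depend on the probe sets: with the mean of each gene's probe sets the cap median was -0.04, that of the others -0.05, and positive fold changes numbered 12 of 15, 8 of 20 and 4 of 8. The cap median was also below 0 with a stricter filter at the 60th percentile (-0.006). Without Folr1-/- replicate 1, 11 of 15 core genes were positive. Both Folr1-/- arrays were above all 3 Folr1+/+ arrays in 7 core genes, 2 cap genes and 1 of the others, or 46.7%, 10.0% and 12.5%, with a background of 22.5%. Both were below all 3 in 0 core genes, 2 cap genes and 3 of the others, or 0%, 10.0% and 37.5%, with a background of 24.2%. These are descriptions of lists that share 5 arrays, and the difference between the parts was not tested.

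Array by array, the core stood apart between the groups and the cap did not. Against the mean of the Folr1+/+ arrays, the median core gene stood at 0.01, 0.03 and -0.01 on the log2 scale over the Folr1+/+ replicates and at 0.26 and 0.20 over the Folr1-/- ones. Both Folr1-/- medians of the core were above all 3 Folr1+/+ medians. The median cap gene stood at 0.12, -0.07 and -0.02 against 0.19 and 0.02, so that the groups overlapped. The median of activators, inhibitor and chaperones stood at -0.03, 0.04 and -0.04 against -0.06 and -0.20. Both Folr1-/- medians of this part were below all 3 Folr1+/+ medians, but replicate 1 only narrowly (-0.058 against -0.043 in Folr1+/+ replicate 3). Over all tested genes the medians ran from -0.004 to 0.012 in the Folr1+/+ arrays and stood at -0.006 and -0.026 in the Folr1-/- ones. Those groups did not overlap either, so medians that stand apart were not particular to the core. Within the core, the Folr1-/- medians were 0.26 and 0.34 for the alpha ring and 0.25 and 0.08 for the constitutive beta ring.

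**Figure D2:**
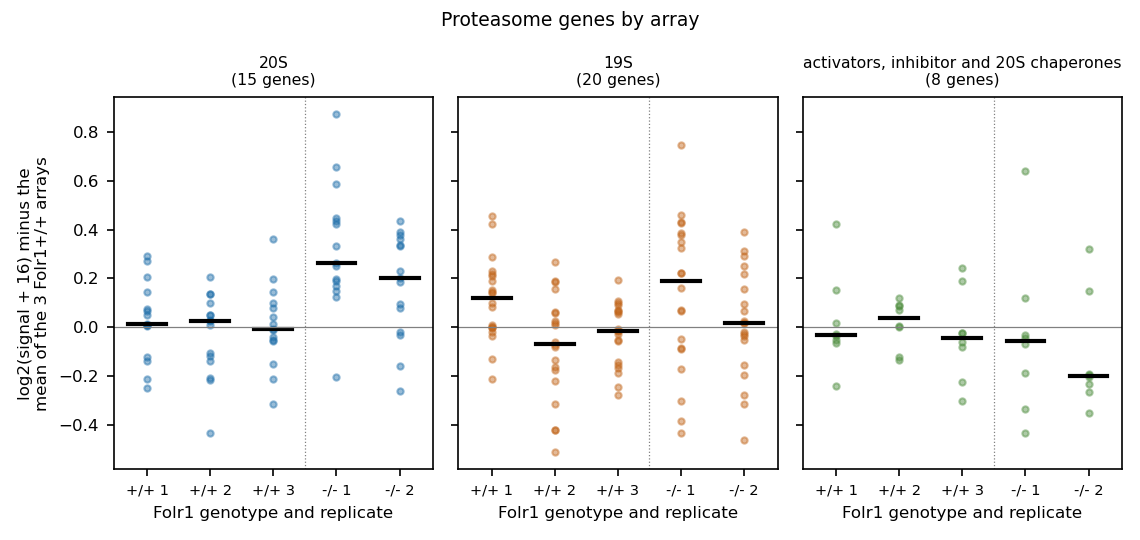
Each point is 1 tested gene in 1 array, as its log2(signal + 16) minus that gene's mean over the 3 Folr1+/+ arrays (y axis), for the 5 arrays (x axis). Black bars are medians over the genes, which for the 20S core stand at 0.26 and 0.20 in Folr1-/- embryos and between -0.01 and 0.03 in Folr1+/+ embryos.

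The alpha ring forms the gates at both ends of the core, and all 7 of its tested genes had fold changes above 0, with a median of 0.29. The lowest, that of Psma7, was 0.001. With the mean of probe sets Psma1 (-0.081) and Psma5 (-0.006) were below 0. Their probe sets of opposite sign were too dim to test, with group mean signals of 1.55 to 13.7. None of the 7 passed the threshold, against 15.0% of all tested genes, and 3 (42.9%, against 30.0%) were under an unadjusted p of 0.05. Psma3 gave signals of 2346, 2425 and 2254 in Folr1+/+ embryos against 3171 and 3070 in Folr1-/- embryos. Its groups did not overlap, at 2342 ± 85.7 (SD, n = 3) against 3120 ± 71.0 (SD, n = 2). The difference was 0.41 ± 0.13 (SE) on the log2 scale and lay just outside the threshold (adjusted p = 0.0561 in limma).

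Psma4 had the largest fold change of the ring, with signals of 468, 353 and 345 against 617 and 506 (0.52 ± 0.18, SE, adjusted p = 0.0686). Psma2 gave 551, 407 and 479 against 723 and 603 (0.46 ± 0.17, adjusted p = 0.0879). In both genes every Folr1-/- array was above every Folr1+/+ array, with Folr1-/- replicate 1 the higher. Psma6 had signals of 1512, 1246 and 1598 against 1601 and 1957, so that Folr1-/- replicate 1 was only just above the highest Folr1+/+ array. Psma1 had signals of 961, 1227 and 1181 against 1275 and 1313. Neither passed (adjusted p = 0.245 and 0.384). With the mean of its probe sets, the others of which were too dim to test, the direction of Psma1 turned (-0.08). Psma7, at 705, 848 and 763 against 927 and 640, lay on both sides of its Folr1+/+ arrays. The testis form of that subunit, Psma8, was dim in every array, with signals of 10.1, 10.2 and 4.23 against 18.8 and 17.7, and was not tested.

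Of the 7 constitutive beta ring genes, 0 passed and 6 had fold changes above 0 (median 0.14), against 15.0% and 47.9% of all tested genes. Among the catalytic subunits, Psmb6, which carries the caspase-like site, gave signals of 1531, 1256 and 1377 in Folr1+/+ embryos against 1891 and 1784 in Folr1-/- embryos. Its groups did not overlap (0.41 ± 0.14, SE, unadjusted p = 0.016 and adjusted p = 0.0793 in limma). Psmb7, which carries the trypsin-like site, gave 1854, 1872 and 1785 against 2466 and 2091 (0.30 ± 0.14, adjusted p = 0.168). Psmb5, which carries the chymotrypsin-like site, had signals of 1257, 1488 and 1426 against 1592 and 1464, and there the groups overlapped (0.14 ± 0.14, adjusted p = 0.561). The lowest fold change of the core was that of Psmb2, at -0.02 ± 0.22, with its Folr1+/+ signals spread from 260 to 462. The other core genes, Psma5, Psmb1, Psmb3 and Psmb4, had fold changes of 0.07 to 0.16.

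The promoters of Psma3 and Psmb6, 2 core genes whose groups did not overlap, are shown from RefSeq on GRCm38.p6. Each window runs from 250 bases before to 50 after the annotated start, which is position 251, and capitals mark matches to CCAAT (the NF-Y box), CCGGAA (an ETS core) or TGACNNNGC (the core of the antioxidant response element, bound by Nfe2l1 and Nfe2l2) on either strand. The Psma3 window lies at chr12:70974373-70974672 (plus strand) and has 3 CCAAT matches. The Psmb6 window lies at chr11:70525107-70525406 (plus strand) and has 1 match to the response element core, at positions 242 to 250, next to the start.
Psma3: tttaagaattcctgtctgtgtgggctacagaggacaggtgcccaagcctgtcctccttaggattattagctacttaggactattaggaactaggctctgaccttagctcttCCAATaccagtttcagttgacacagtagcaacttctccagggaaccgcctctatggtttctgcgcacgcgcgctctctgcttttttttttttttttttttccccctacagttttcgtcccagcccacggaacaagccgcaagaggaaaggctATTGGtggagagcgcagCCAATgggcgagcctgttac
Psmb6: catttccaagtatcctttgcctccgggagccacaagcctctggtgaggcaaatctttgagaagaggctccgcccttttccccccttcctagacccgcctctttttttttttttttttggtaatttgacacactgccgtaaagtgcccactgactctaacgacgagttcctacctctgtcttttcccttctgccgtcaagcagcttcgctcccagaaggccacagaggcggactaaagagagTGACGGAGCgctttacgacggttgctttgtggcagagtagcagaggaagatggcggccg

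In immune cells, and in others exposed to interferon gamma, Psmb8, Psmb9 and Psmb10 replace the catalytic subunits to form the immunoproteasome. Psmb8 gave signals of 3.44, 1.39 and 1.49 in Folr1+/+ embryos against 0.906 and 1.18 in Folr1-/- embryos. Psmb9 had signals of 9.87, 22.7 and 10.6 against 18.4 and 3.50. Both genes lay below the signal of about 30.0 under which genes were not tested, and gave no fold change. Psmb10 was just above it, at 45.4, 35.1 and 24.3 against 75.9 and 41.6, and the groups overlapped (0.54 ± 0.26, SE, adjusted p = 0.183). Its fold change rests on Folr1-/- replicate 1: it was 0.20 without that array, 0.87 without replicate 2 and 0.30 with a pseudocount of 64. Of the 10 immune and macrophage markers on the array 1, Csf1r, was bright enough to test (0.56 ± 0.20, adjusted p = 0.0783). The summed signal of the 10 was 118 to 157 in Folr1+/+ and 141 and 163 in Folr1-/- embryos.

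The genes of the 19S cap went both ways. Psmd2 encodes a large base subunit, a scaffold that docks ubiquitin receptors and shuttle proteins. It gave signals of 2398, 2431 and 2373 in Folr1+/+ embryos against 1832 and 1736 in Folr1-/- embryos. The groups did not overlap and each was tight, at 2401 ± 29.3 (SD, n = 3) against 1784 ± 68.2 (SD, n = 2), a ratio of 0.743. It fell by 0.43 on the log2 scale (SE 0.13, 95% interval -0.71 to -0.14), with a limma adjusted p of 0.0499. The call rests on the threshold: it was kept in 6 of 16 other settings and lost in 10, among them each fit without 1 array (adjusted p 0.0366 to 0.187 over the 16), while the fold change stayed between -0.46 and -0.38.

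Psmd4, the base subunit that binds ubiquitin chains, had signals of 644, 635 and 549 against 1032 and 759, the largest fold change of the cap (0.53 ± 0.17, SE, adjusted p = 0.0518). Its groups did not overlap, and Folr1-/- replicate 1 was the highest. Its probe sets disagreed: a second one had a fold change of 0.28, and another, dim one, with mean signals of 37.6 in Folr1+/+ and 14.6 in Folr1-/- embryos, had one of -0.86. With the mean of the 3 the direction of Psmd4 turned (-0.02, adjusted p = 0.957). Psmd1, the large scaffold that resembles Psmd2, had signals of 2086, 2388 and 1831 against 2192 and 1722. These overlapped (-0.10 ± 0.16, 95% interval -0.46 to 0.25), and the difference between the fold changes of Psmd1 and Psmd2 was not tested.

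The promoter windows of Psmd2, of its relative Psmd1 and of Psmd4 are shown with the same marks. Psmd2 (chr16:20651402-20651701, plus strand) has 2 matches to CCGGAA, 1 on each strand. Psmd1 (chr1:86064369-86064668, plus strand) has none of the 3 motifs. Psmd4 (chr3:95042565-95042864, minus strand) has 3 matches to CCAAT and 2 overlapping ones to CCGGAA.
Psmd2: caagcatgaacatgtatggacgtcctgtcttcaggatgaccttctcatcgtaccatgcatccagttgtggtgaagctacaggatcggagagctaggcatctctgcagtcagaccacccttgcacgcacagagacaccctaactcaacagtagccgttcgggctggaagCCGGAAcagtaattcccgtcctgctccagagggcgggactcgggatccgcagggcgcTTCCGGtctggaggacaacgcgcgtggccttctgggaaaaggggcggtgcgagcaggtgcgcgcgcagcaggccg
Psmd1: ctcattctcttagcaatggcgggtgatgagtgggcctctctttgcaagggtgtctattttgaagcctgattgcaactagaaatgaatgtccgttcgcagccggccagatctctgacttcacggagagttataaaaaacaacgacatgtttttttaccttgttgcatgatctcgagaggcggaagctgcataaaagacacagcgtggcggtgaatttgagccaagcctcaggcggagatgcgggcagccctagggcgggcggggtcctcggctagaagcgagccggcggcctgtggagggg
Psmd4: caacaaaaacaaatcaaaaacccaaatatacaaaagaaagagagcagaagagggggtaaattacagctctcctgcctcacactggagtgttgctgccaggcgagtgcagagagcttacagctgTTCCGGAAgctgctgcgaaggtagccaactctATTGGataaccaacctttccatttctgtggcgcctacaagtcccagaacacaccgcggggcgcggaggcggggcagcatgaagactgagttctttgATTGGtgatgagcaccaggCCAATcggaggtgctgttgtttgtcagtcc

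The 6 ATPases that unfold substrates gave 0 calls, and 0 were under an unadjusted p of 0.05, with a median fold change of 0.09. Over all tested genes 15.0% were called and 30.0% were under an unadjusted p of 0.05 in limma. Psmc3 gave signals of 1464, 789 and 1042 in Folr1+/+ embryos against 1441 and 1401 in Folr1-/- embryos, so the large spread lay among the Folr1+/+ arrays (0.41 ± 0.21, SE, adjusted p = 0.219). Psmc5 had signals of 965, 1181 and 824 against 1353 and 1142, which overlapped (0.34 ± 0.17, adjusted p = 0.209). Psmc1 had signals of 577, 581 and 574 against 741 and 587, and the groups did not overlap although Folr1-/- replicate 2 was close to the Folr1+/+ arrays (0.19 ± 0.15, adjusted p = 0.444).

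In the lid, which holds the deubiquitinase Psmd14, all 8 genes overlapped between the groups and 0 passed (0 with an unadjusted p under 0.05 in limma, median 0.12). Over all tested genes 46.7% did not overlap, 15.0% passed and 30.0% were under an unadjusted p of 0.05 in limma. Psmd14 had signals of 2524, 2480 and 2775 against 1914 and 2622, with Folr1-/- replicate 1 low and replicate 2 within the Folr1+/+ range. The largest fold changes were those of Psmd3 (0.32 ± 0.23, SE) and Psmd7 (0.24 ± 0.21), with adjusted p of 0.386 and 0.476. Psmd3 ranged from 265 to 521 in the Folr1+/+ arrays. The other ATPase and lid genes had fold changes between -0.12 (Psmc6) and 0.18 (Psmd13). The chaperones that assemble the base also did not pass, among them Psmd9 (0.09 ± 0.20). Psmd5 had signals of 534, 503 and 555 against 469 and 423, with both Folr1-/- arrays below the others (-0.24 ± 0.15, adjusted p = 0.289). The X-linked Psmd10 was dim, at 25.6, 37.9 and 34.2 against 48.9 and 31.7 (0.20 ± 0.23, adjusted p = 0.587), in arrays that also differed in Xist.

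Activators bind the ends of the 20S core in place of the cap. Psme4 encodes PA200, a large nuclear activator. It gave signals of 1101, 1090 and 1069 in Folr1+/+ embryos against 800.1 and 900.4 in Folr1-/- embryos, with both Folr1-/- arrays below all others. The means were 1087 ± 15.9 (SD, n = 3) and 850 ± 70.9 (SD, n = 2), and the log2 fold change of -0.35 ± 0.14 (SE) did not pass (unadjusted p = 0.027, adjusted p = 0.114 in limma). Its other 2 probe sets had fold changes of -0.47 and -0.48, and with the mean of its probe sets Psme4 passed (-0.43, adjusted p = 0.0430).

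Psme3, the nuclear activator PA28 gamma, had signals of 324, 363 and 314 against 290 and 287, again with both Folr1-/- arrays the lowest (-0.20 ± 0.15, SE, adjusted p = 0.422). With the mean of its probe sets the direction of Psme3 turned (0.09). Psme1, a subunit of the interferon-inducible activator PA28, had signals of 103, 65.3 and 55.8 against 122 and 94.6, and the groups overlapped (0.48 ± 0.23, adjusted p = 0.187). Its partner Psme2 shares its probe set with a second symbol and so is not given a value here. Psmf1, the inhibitor PI31, gave 69.5, 85.4 and 104 against 80.5 and 72.7 (-0.13 ± 0.20, adjusted p = 0.703).

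The Psme4 window (chr11:30771525-30771824, plus strand) has 2 matches to CCGGAA and 1 to the response element core on the other strand, across the start.
Psme4: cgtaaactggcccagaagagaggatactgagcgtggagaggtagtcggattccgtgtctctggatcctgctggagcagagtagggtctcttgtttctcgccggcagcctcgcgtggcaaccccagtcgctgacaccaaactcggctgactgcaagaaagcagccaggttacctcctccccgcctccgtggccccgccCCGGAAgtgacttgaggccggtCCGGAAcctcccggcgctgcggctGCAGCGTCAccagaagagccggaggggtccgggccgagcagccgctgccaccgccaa

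Across the 46 genes, 38 matched a promoter in the RefSeq table, each read at its outermost listed start. A CCGGAA match was present in 19 of the 38 (50.0%), against 31.0% of the 6068 tested genes with a promoter and 15.2% of all 27025 promoters. It was present in 11 of 17 cap genes (64.7%), 3 of 14 core genes (21.4%) and 5 of 7 activator, inhibitor and 20S chaperone genes (71.4%). CCAAT was present in 7 of 14 core genes (50.0%), 5 of 17 cap genes (29.4%) and 1 of 7 of the others (14.3%), against 38.8% of tested genes. The response element core was present in 6 of the 38 (15.8%), against 14.7% of tested genes. These counts describe letters in a window of 300 bases and not binding.

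The 20S chaperones encoded by Psmg1 to Psmg4 assemble the alpha ring. Of the 4, 0 passed and 0 had an unadjusted p under 0.05 in limma, against 15.0% and 30.0% of all tested genes. Psmg1 had signals of 624, 588 and 477 against 440 and 473, with both Folr1-/- arrays lowest, replicate 2 by a small margin (-0.29 ± 0.16, SE, adjusted p = 0.256). Psmg2 had signals of 164, 184 and 169 against 189 and 193, both Folr1-/- arrays being highest (0.14 ± 0.16, adjusted p = 0.618). Psmg4 overlapped between the groups, at 55.4, 61.4 and 53.7 against 54.4 and 41.0 (-0.20 ± 0.20, adjusted p = 0.536), and Psmg3 had a fold change of -0.12 ± 0.17.

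Outside the Psm symbols, 4 genes of the pathway lists passed the threshold. By list, 1 of 3 tested subunits and chaperones passed, 1 of 8 proteasome partners and 0 of 8 ubiquitin shuttles and p97 partners. In the Nfe2l1 circuit 1 of 6 passed, and in class I antigen processing 1 of 5. Over all tested genes 15.0% passed. Pomp, the maturation factor that completes assembly of the core and is consumed by it, gave signals of 201, 163 and 207 in Folr1+/+ embryos against 338 and 320 in Folr1-/- embryos. It rose by 0.75 ± 0.17 (SE, adjusted p = 0.0104), at 190 ± 24.1 (SD, n = 3) against 329 ± 12.6 (SD, n = 2). This was a larger change than that of any tested Psm gene in the probe set used. Other probe sets had fold changes of -0.86 (Psmd4, dim) and 0.73 (Psmb4). Pomp is the chaperone of the core genes, of which 0 of 15 passed and 4 (26.7%, background 30.0%) had an unadjusted p under 0.05. The call of Pomp was lost without Folr1-/- replicate 1 (0.71) or replicate 2 (0.79). Of the other listed subunits and chaperones, Sem1, a small lid subunit, gave 264, 396 and 309 against 441 and 416 (0.41 ± 0.18, adjusted p = 0.152), and Akirin2 overlapped between the groups.

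Among 8 partners that bind the assembled proteasome, 1 fell (12.5%, against 6.79% of all tested genes) and 0 rose. Ecpas, the adaptor also known as Ecm29 that ties the core to the cap, had signals of 208, 192 and 161 against 99.4 and 103. The Folr1-/- arrays lay far below the others, at 101 ± 2.39 (SD, n = 2) against 187 ± 23.9 (SD, n = 3), and Ecpas fell by 0.79 on the log2 scale (SE 0.17, adjusted p = 0.0103). This call too was lost without Folr1-/- replicate 1 (-0.77, adjusted p = 0.0944) or replicate 2 (-0.81, adjusted p = 0.0575). The median of the 8 partners was -0.18, and 4 of them (50.0%) had both Folr1-/- arrays below all others, against 24.2% of all tested genes.

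In the Nfe2l1 circuit 1 of 6 tested genes rose (16.7%, against 8.19% of all tested genes) and 0 fell. Nfe2l2 had signals of 202, 242 and 224 against 332 and 357, with no overlap, and rose by 0.60 ± 0.16 (SE, adjusted p = 0.0253). Its call was kept in 11 of 16 other settings and lost in 5, namely when blocked by replicate number (adjusted p = 0.0644) and in the fits without Folr1+/+ replicate 1 (adjusted p = 0.0619), Folr1+/+ replicate 3 (0.0772), Folr1-/- replicate 1 (0.113) or Folr1-/- replicate 2 (0.137). Nfe2l1 itself had signals of 333, 287 and 328 against 366 and 404, with both Folr1-/- arrays highest, and did not pass (0.27 ± 0.15, adjusted p = 0.257). Keap1, which holds Nfe2l2 for degradation, was among the genes that did not pass.

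Of the 8 tested ubiquitin shuttles and partners of the segregase p97, 0 passed, and the median fold change was 0.07. An unadjusted p under 0.05 in limma was found in 2 (25.0%), against 30.0% of all tested genes. Ufd1, a p97 cofactor, gave 80.6, 68.9 and 52.8 against 135 and 98.8 (0.67 ± 0.21, SE, adjusted p = 0.0512). Nsfl1c, another p97 cofactor, had signals of 708, 211 and 460 against 713 and 777, where Folr1+/+ replicate 1 nearly equalled Folr1-/- replicate 1 (0.83 ± 0.35, adjusted p = 0.134). The value for Nsfl1c turns on single arrays, at 0.37 without Folr1+/+ replicate 2 and 1.21 without Folr1+/+ replicate 1 (adjusted p = 0.0206). It also passed with the Actb covariate (0.62, adjusted p = 0.0394). In class I antigen processing, which uses proteasome peptides, 1 of 5 tested genes fell and 0 rose. H2-D1 had signals of 92.5, 66.6 and 67.6 against 39.1 and 43.6 and fell by 0.66 on the log2 scale (SE 0.20, adjusted p = 0.0452). H2-D1 has 9 probe sets and close relatives, so its level is uncertain, and with the mean of its probe sets the fold change was -0.35 (adjusted p = 0.117). Its call was kept in 7 of 15 other settings, and was also lost without Folr1+/+ replicate 1, Folr1+/+ replicate 3 or either Folr1-/- replicate, with fold changes of -0.72 to -0.54 in those fits. The 6 listed genes of ubiquitin and its activating enzymes were not analysed here.

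**Figure D3:**
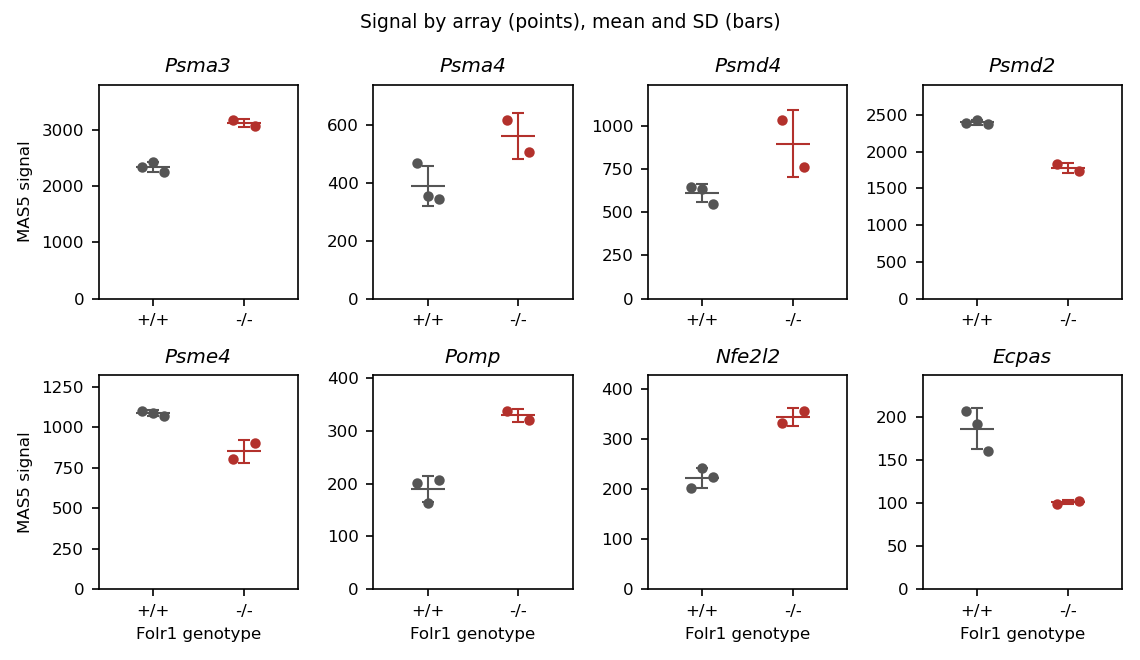
MAS5 signal (y axis, linear, from 0) of 5 proteasome genes and 3 pathway genes in the 3 Folr1+/+ and 2 Folr1-/- arrays (x axis), with points for arrays and bars for the mean and SD. Psmd2, Psme4 and Ecpas are lower in both Folr1-/- arrays and the other 5 genes higher, and of the 8 only Psmd2, Pomp, Nfe2l2 and Ecpas passed the threshold.

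The chaperonin CCT, another large cytosolic complex made in most cells, was set beside the proteasome. Of its 8 genes 0 passed and 3 (37.5%) had an unadjusted p under 0.05 in limma, against 15.0% and 30.0% of all tested genes. The median fold change was -0.25, with a positive fold change in 1 (12.5%, against 47.9% of all tested genes). Cct6a gave 3322, 4242 and 3959 against 2901 and 2713 (-0.44 ± 0.15, SE, adjusted p = 0.0645) and Cct4 3902, 3867 and 3527 against 3234 and 2496 (-0.40 ± 0.15, adjusted p = 0.0950). Both Folr1-/- arrays lay below all Folr1+/+ arrays in 3 of 8 CCT genes (37.5%, background 24.2%) and above them in 0 (background 22.5%), where the 20S core had 0 of 15 below and 7 above. The difference between these lists was not tested.

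**Figure D4:**
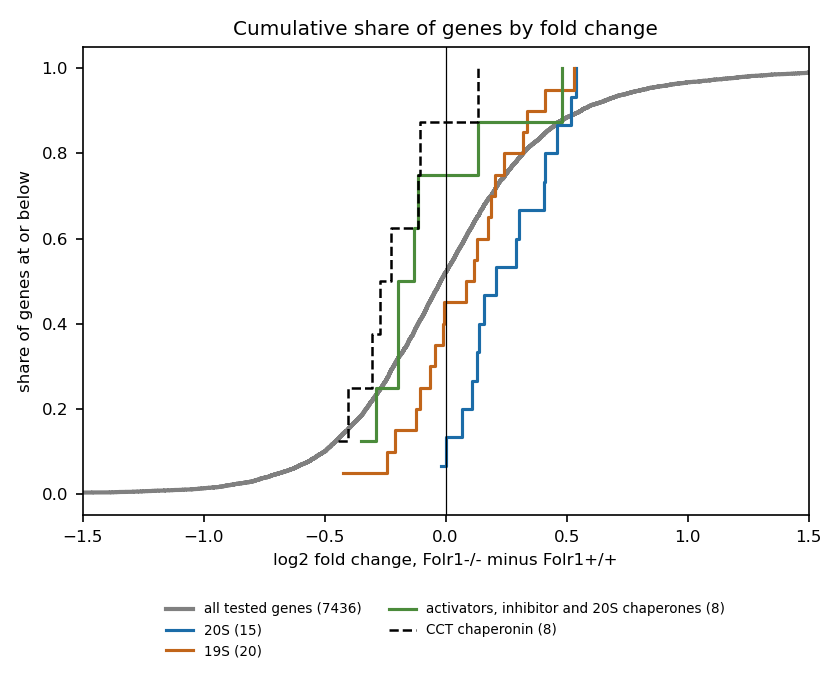
Share of genes (y axis) whose log2 fold change (x axis, Folr1-/- minus Folr1+/+) is at or below each value, for the parts of the proteasome, the 8 CCT genes and all 7436 tested genes. The 20S line lies to the right of the line of all tested genes over most of its length (medians 0.21 and -0.02), and the CCT line lies to its left (median -0.25).

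Of the 46 proteasome genes and their 2 namesakes, 21 had more than 1 probe set. Of their 37 other probe sets, 23 had a mean signal at or above the test limit, and 8 of these 23, in 8 genes, had a fold change of opposite sign to the probe set used. These genes were Psmb1, Psmc4, Psmd9, Psmd11, Psmd13, Psme3, Psmf1 and Psmg2, and the largest of the opposite fold changes was -0.60, in Psmd9. Psmb4, read at 2156 and 2346 (means of the groups), had a second probe set with means of 397 and 650 and a fold change of 0.73. The 2 namesakes did not pass, with fold changes of -0.12 for Psmc3ip and -0.05 for Psme3ip1.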

How the data were processed

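RNA of 5 mouse whole-embryo samples was hybridised to 1 array each. The deposited values are MAS5 intensities (signals on a linear scale) of 22690 probe sets, per the submitters' processing notes; its version is not stated there. The trimmed mean of each array was 150.06 or 150.07, so no further scaling was applied. The number of arrays limits the precision.

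Control probe sets were dropped, probe sets were named from GEO's platform annotation, and the 20380 with a single symbol were kept (691 had several, 1555 were not listed). Where a gene had several, the brightest by mean log2(signal + 16) was used. Genes below the 40th percentile of mean signal (about 30.0) were removed, which left 7436 of 12393. Groups were compared with limma 3.58.1 in R 4.3.3 (lmFit, eBayes with an intensity trend), p-values were adjusted over all 7436 genes by Benjamini-Hochberg, and a gene was called at an adjusted p under 0.05. The procedure was tested on simulated data, with planted changes larger than any fold change of the 43 tested proteasome genes. It therefore does not show how often changes of their size would be called.

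The members and lists were chosen with earlier results of these data known. Named genes were those past the threshold, the immunoproteasome, activator and inhibitor genes and the 2 with the largest fold changes in each part. Chosen after their values were seen were the other members with groups that do not overlap, Psma7, Psmb2, Psmb5, Psmd1, Psmd10, Psmd14, Sem1, Akirin2, Keap1, Nfe2l1 and the promoters shown. Promoters are RefSeq's on GRCm38.p6. Alternatives covered the pseudocount, filter, scaling, trend, probe set choice, replicate block, array weights, an Actb 3'/5' covariate and each array left out.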

Additional observations from a re-analysis of the deposited data

How the results depend on the processing

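With 2 Folr1-/- arrays, calls near the threshold turn on single arrays. Genes called over the whole array numbered 1114, and 369 to 1007 without 1 array (636 without Folr1+/+ replicate 3, 369 without Folr1-/- replicate 1, 664 without Folr1-/- replicate 2). Proteasome genes called higher numbered 0, but 1 with a pseudocount of 64, the Actb covariate or the 60th percentile filter (Psmd4 each time), 1 with quantile normalization or the mean of probe sets (Psma3), 3 with array weights (Psma3, Psma4 and Psmd4), and 0 to 2 without 1 array (2 without Folr1+/+ replicate 1, 1 without Folr1+/+ replicate 2, 1 without Folr1-/- replicate 2). Those called lower numbered 1, but 0 with no filter, quantile normalization, no intensity trend, the Actb covariate or any array left out (0 to 0), and 2 with the mean of probe sets (Psmd2 and Psme4).

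The median fold change of the 20S core was 0.24 with the Actb covariate and 0.18 to 0.26 without 1 array, that of the 19S cap -0.006 with the 60th percentile filter, -0.037 with the mean of probe sets and 0.017 to 0.191 without 1 array, and that of activators, inhibitor and chaperones -0.053 with the mean of probe sets and -0.211 to -0.058 without 1 array. With the mean of probe sets the sign turned in 9 of the 43 tested proteasome genes, namely Psma5 (-0.006), Psmc4 (0.082), Psmd9 (-0.255), Psma1 (-0.081), Psmc1 (-0.004), Psmd4 (-0.016), Psmd7 (-0.125), Psme3 (0.088) and Psmf1 (0.064). In Psma1, Psma5, Psmc1, Psmd4 and Psmd7 every probe set of opposite sign had a mean signal below the test limit. Without 1 array the sign turned in 3 to 9 of the 43, among them Psma7 (-0.26 to 0.26), Psmb2 (-0.24 to 0.16), Psmd10 (-0.019 to 0.426) and Psmd14 (-0.433 to 0.018). The cause was not tested.

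The groups share replicate numbers 1 and 2, but the labels do not pair the arrays, and deviations of same-numbered arrays correlated at 0.0189 and -0.0558. With the replicate number as a block 899 genes were called, 0 proteasome genes were called lower, Psmd2 was at -0.43 (adjusted p = 0.148), the 20S median was 0.25, and Psma7 (-0.006) and Psmb2 (0.162) changed sign, as did Psmc4 (0.024) and Psmd11 (0.046). The block also ended the calls of Nfe2l2 (0.60, adjusted p = 0.0644) and H2-D1 (-0.72, adjusted p = 0.0733), while Nsfl1c passed with it (0.91, adjusted p = 0.0228). Groups of 3 and 2 arrays are too small for a test of single outlying arrays.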
